A study of Mus musculus with 12 samples.

Results

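The genes described here are the receptors Notch1, Notch2 and Notch3, the nuclear mediators Rbpj and Maml1, and the target and feedback genes Hes1, Hey1, Dtx1, Dtx4 and Nrarp. They were taken by gene symbol and made up 10 of the 51826 genes in the count table. The table held 12 murine bone marrow-derived pre-B cell lines from 2 C57BL/6 mice. From each mouse, 3 lines carried the empty retroviral vector (EV) and 3 carried BCR-ABL1, the fusion kinase of Philadelphia chromosome-positive acute lymphoblastic leukemia. Lines are named by vector, mouse number and letter, so that EV 1A is the first EV line of mouse 1. The paper describes triplicates from 3 independent experiments, and whether the letters mark these is not stated. All cells were first expanded with interleukin 7 (IL7) for 7 days, transduced, and held for 48 h with IL7. IL7 was then taken away for 1 week from the BCR-ABL1 lines only, while the EV lines stayed in IL7 and were sorted for GFP. The vector, the loss of IL7 and the sort therefore changed together and cannot be told apart. The 3 lines of a vector and mouse shared their animal, so the p-values measure the spread between lines, not between many mice. The main fit to all 12 lines left the mouse out, so its spread also holds the difference between the 2 mice.

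Notch receptors are cut after a ligand on a neighbouring cell binds them. The freed intracellular domain enters the nucleus, where it joins the DNA-binding protein RBPJ and a Mastermind coactivator (MAML1) and switches on target genes such as Hes1, Hey1 and Nrarp. NRARP limits the signal as a feedback inhibitor, and the Deltex proteins are E3 ubiquitin ligase family members that act on Notch receptors. Notch1 is best known for committing lymphoid progenitors to the T lineage and Notch2 for marginal zone B cells, in which Dtx1 is a familiar target.

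Dtx4 was the only member called higher beyond 1.5-fold in the BCR-ABL1 lines. It rose by 5.94-fold, from a mean of 0.791 ± 0.504 to 4.66 ± 1.87 CPM (counts of the gene over the scaled library total; SD, n = 6 lines each). Of the 10 members, 7 had enough counts to be tested and Notch3, Hey1 and Dtx1 did not. Notch1, Notch2, Rbpj, Maml1, Hes1 and Nrarp did not pass the test of a change beyond 1.5-fold. The direction for Nrarp was opposite in the 2 mice, and the change of Notch1 was larger in mouse 1 than in mouse 2. Among the other Notch pathway genes, the glycosyltransferase Lfng rose, while the receptor Notch4, the protease subunit Psen2, the ubiquitin ligase Mib2 and the target Trib2 fell. Mib2 and Trib2 kept their calls in all alternative fits, but Lfng, Notch4 and Psen2 lost theirs in some, DESeq2 among them. Lfng also lost its call when any 1 of 9 lines was left out. The ligand Dll4 and the Deltex gene Dtx3 were also called higher, but passed the filter on low counts only through the BCR-ABL1 lines.

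The lines held between 34791011 and 66011225 counts, with a median of 53482987 in EV and 51773506.5 in BCR-ABL1 lines. Pax5, the transcription factor that fixes B lineage identity, was read at 369 to 569 CPM in the EV lines and at 310 to 436 CPM in those with BCR-ABL1. Of the 12 B lineage genes looked at, only Cd22 had no overlap between the groups. Over all genes tested, 12.1% lay wholly higher and 13.5% wholly lower in the BCR-ABL1 lines, so this count was not read as a result. The surface receptor gene Cd22 was at 82.4 to 195 CPM with EV and 21.8 to 81.4 CPM with BCR-ABL1. Every line was lower, though EV 2C and BCR-ABL1 2A lay close together. The surrogate light chain gene Vpreb2 differed by mouse among the EV lines, at 20.8 to 31.2 CPM in mouse 1 and 121 to 265 CPM in mouse 2, beside 143 to 245 CPM with BCR-ABL1. The library of EV 2A stood apart, with 36123 genes holding a count against 20235 to 28517 in the other lines. It held the fewest counts of all lines, 34791011, yet 0.269% of them fell in genes not tested, against 0.0491% to 0.121% elsewhere. Its summed stromal markers reached 2.3 CPM and its summed myeloid markers 1.78 CPM, the highest of all lines, against at most 0.203 and 0.623 CPM in the BCR-ABL1 lines. Mast and basophil markers reached 0.644 CPM and NK cell markers 3.95 CPM at most. For the T cell list the EV lines gave 71.9 to 146 CPM and the BCR-ABL1 lines 67.2 to 124 CPM, nearly all of it Lck and Trac, with Cd3e at 0.123 CPM at most and Trbc2 at 0 in all lines. Trac itself was at 9.99 to 41.1 CPM with EV and at 0.213 to 1.34 CPM with BCR-ABL1. The endothelial and mural list ran from 33.3 to 267 CPM in EV and from 82.2 to 103 CPM in BCR-ABL1 lines. Most of it was Pecam1, at 32.6 to 170 CPM (EV) and 81.9 to 102 CPM (BCR-ABL1). Rgs5, known from pericytes, was at 94.7 CPM in EV 2B, where the mural genes Acta2 and Cspg4 were at 0.0199 and 0.0596 CPM. The erythroid list gave 1.28 to 6.83 CPM (EV) and 5.94 to 12.7 CPM (BCR-ABL1), mostly Hbb-bt, with Hba-a1 and Hba-a2 at 0. The part of such cells, of these B lineage differences or of the low depth and many detected genes of EV 2A in the results was not tested. In bulk RNA, fewer cells of a type and less RNA per cell cannot be told apart.

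**Figure D1:**
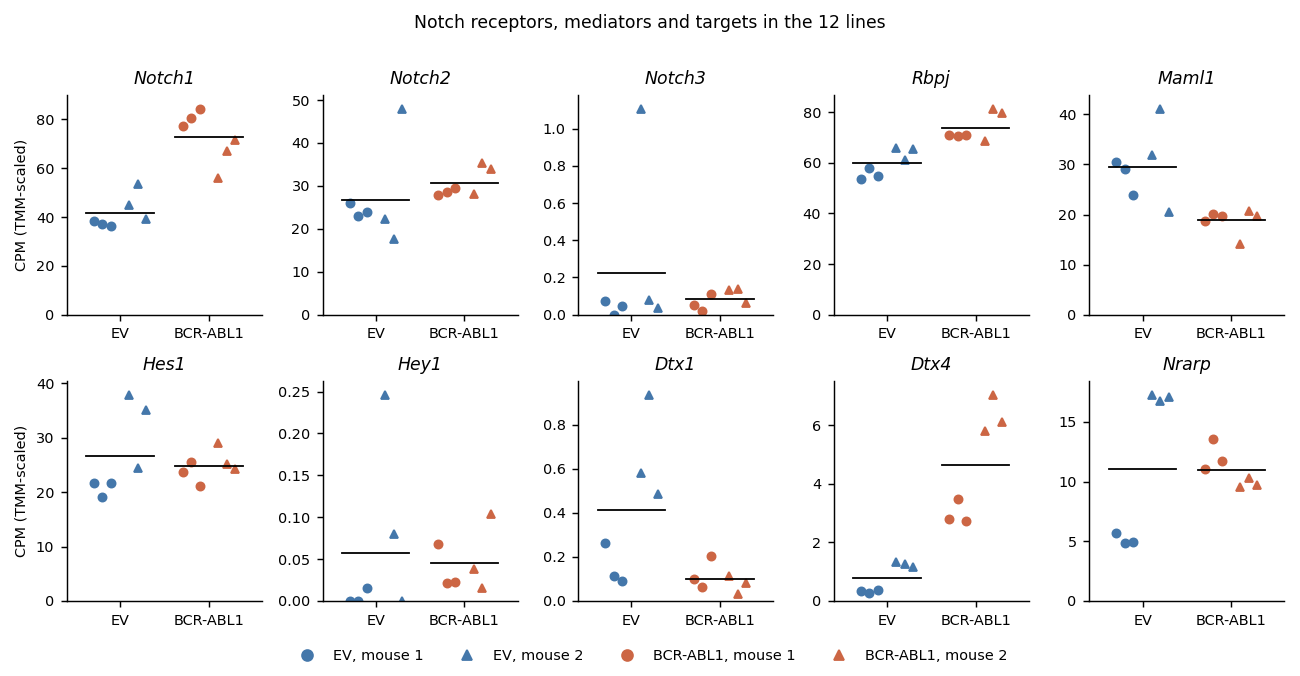
Level of each of the 10 members in CPM (vertical axes from 0, each with its own scale) in EV and BCR-ABL1 lines. Circles are lines of mouse 1, triangles lines of mouse 2, and horizontal bars the means of 6 lines. For Notch1, Rbpj and Dtx4 every BCR-ABL1 line lay above every EV line. In Nrarp the EV lines of the 2 mice sit far apart, at 4.85 to 5.72 and 16.8 to 17.2 CPM.

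The receptors differed widely in level. Notch1, which spans chromosome 2 from 26457903 to 26516663 on the minus strand (GRCm38), was read at 38.2, 37.3 and 36.5 CPM in EV lines 1A to 1C and at 44.9, 53.6 and 39.0 CPM in EV lines 2A to 2C. The BCR-ABL1 lines held 77.1, 80.5 and 84.2 CPM in mouse 1 and 56.0, 67.1 and 71.4 CPM in mouse 2. The lowest BCR-ABL1 line was thus above the highest EV line, and the BCR-ABL1 lines of mouse 1 were all above those of mouse 2. Over the 12 lines, the log2 fold change of Notch1 was 0.81 (standard error 0.12), and the test against a 1.5-fold change gave an adjusted p of 0.0787. Standard errors throughout are those of the difference in mean log2 CPM between the groups, not of the fitted change. Against no change at all the adjusted p was 0.000260, a test that called 22.5% of the 15038 genes tested higher and 25.9% lower. In mouse 1 alone the log2 fold change was 1.12 (adjusted p = 2.95e-06), while in mouse 2 alone it was 0.51 (adjusted p = 0.959). The call depended on single lines, since the adjusted p fell to 0.0175 without EV 2B and to 0.0313 without BCR-ABL1 2A. The antisense gene 0610009E02Rik held 14 to 67 reads per line.

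Notch2, on chromosome 3 from 98013527 to 98150361, ranged over 17.6 to 47.9 CPM in EV lines (median 23.5), and the BCR-ABL1 lines spanned 27.8 to 35.3 CPM (median 29.1). EV 2C alone gave the value of 47.9 CPM and the other EV lines were at 26.0 CPM or less, below every BCR-ABL1 line. The log2 fold change was 0.19 (standard error 0.21, adjusted p = 1.00), and it was 0.44 without EV 2C, still not called.

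Notch3, on chromosome 17 from 32120820 to 32166852, had 0 to 4 reads in 5 EV lines, 36 reads in EV 2A and 1 to 9 reads in the BCR-ABL1 lines. It lay below the gene filter. The difference in mean log2 CPM was -0.09 (exact two-sided permutation test over lines, p = 0.937), and it became 0.56 without EV 2A. EV 2A, the line with the most genes detected, was also the only line with reads of the antisense gene Gm17276, 6 in number.

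The fourth receptor gene, Notch4, is known mainly from endothelium and fell in the BCR-ABL1 lines. It was at 1.66, 1.36 and 1.74 CPM in the EV lines of mouse 1 and at 2.88, 2.17 and 1.62 CPM in those of mouse 2. The BCR-ABL1 lines held 0.610, 0.878 and 0.659 CPM in mouse 1 and 1.14, 0.867 and 0.768 CPM in mouse 2, all below every EV line. The log2 fold change was -1.21 (standard error 0.20, adjusted p = 0.0169). It was -1.14 in mouse 1 alone (adjusted p = 0.0142) and -1.24 in mouse 2 alone (adjusted p = 0.131).

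Rbpj encodes the DNA-binding partner of the cleaved receptor and lies on chromosome 5 from 53466152 to 53657362. Its level was 53.8 to 66.0 CPM in EV lines (median 59.5) and 68.5 to 81.1 CPM in BCR-ABL1 lines (median 70.9), with no overlap. The log2 fold change was 0.30 (standard error 0.07), with an adjusted p of 1.00 against a 1.5-fold change and 0.00463 against no change. The processed pseudogenes Rbpj-ps1 and Rbpj-ps3 held at most 1 and 11 reads in any line.

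Maml1, the Mastermind coactivator gene on chromosome 11 from 50255634 to 50292311, was at 30.5, 29.2 and 24.0 CPM in EV lines 1A to 1C and at 31.8, 41.0 and 20.5 CPM in EV lines 2A to 2C. The BCR-ABL1 lines held 18.7, 20.2 and 19.8 CPM in mouse 1 and 14.1, 20.7 and 19.7 CPM in mouse 2. The groups overlapped only through EV 2C and BCR-ABL1 2B. The log2 fold change was -0.64 (standard error 0.16, adjusted p = 0.534), or 0.00511 for the adjusted p against no change.

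Hes1, a transcriptional repressor and the classical Notch target, lies on chromosome 16 from 30064384 to 30067796. The EV lines spanned 19.1 to 37.8 CPM (median 23.1) and the BCR-ABL1 lines 21.2 to 29.0 CPM (median 24.7). The ranges lay within each other, and the log2 fold change was -0.10 (standard error 0.18, adjusted p = 1.00). Its sign turned with the mouse, at 0.18 in mouse 1 and -0.30 in mouse 2, and without EV 2A it was 0.01. Neither mouse reached the threshold.

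Hey1, a related repressor gene on chromosome 3 from 8663359 to 8667256, was near the limit of detection. It had 0 to 1 reads in 4 EV lines, 8 in EV 2A, 4 in EV 2B and 1 to 5 in the BCR-ABL1 lines. The difference in mean log2 CPM was 0.20 (exact permutation test, p = 0.71).

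Dtx4, on chromosome 19 from 12466338 to 12501454, was read 19, 18 and 25 times in the EV lines of mouse 1 and 43, 63 and 65 times in those of mouse 2. In the BCR-ABL1 lines the counts were 166, 167 and 120 in mouse 1 and 301, 462 and 295 in mouse 2. As CPM, EV lines 1A to 1C held 0.358, 0.260 and 0.384 and EV lines 2A to 2C held 1.32, 1.25 and 1.17. BCR-ABL1 lines 1A to 1C held 2.81, 3.49 and 2.73 CPM and BCR-ABL1 lines 2A to 2C held 5.80, 7.03 and 6.12 CPM. Every BCR-ABL1 line was above every EV line, and in both groups the lines of mouse 2 were above those of mouse 1. The log2 fold change was 2.57 (standard error 0.48, adjusted p = 0.00441). It was 3.18 in mouse 1 alone (adjusted p = 1.37e-06) and 2.35 in mouse 2 alone (adjusted p = 0.00253), and the difference between the mice was not called (adjusted p = 0.0553). The tested genes whose centred log2 CPM followed that of Dtx4 most closely over the 12 lines were Fosb, Hpse and Tmem100, with root mean square differences of 0.32, 0.33 and 0.38.

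Dtx1, the paralogue on chromosome 5 from 120680202 to 120711927, was read 14, 8 and 6 times in EV lines 1A to 1C, 19, 47 and 27 times in EV lines 2A to 2C, and 2 to 9 times in the BCR-ABL1 lines. It lay below the gene filter when all lines were used. In mouse 2 all BCR-ABL1 lines (0.0304 to 0.116 CPM) were below all EV lines (0.487 to 0.934 CPM), while in mouse 1 the ranges overlapped (0.0627 to 0.204 against 0.0921 to 0.263 CPM). The difference in mean log2 CPM over all lines was -1.47 (exact two-sided permutation test, p = 0.0238, smallest possible 0.00216), and exchanging lines within a mouse only gave p = 0.03, both unadjusted. Of the 12 lines, 4 EV lines and 1 BCR-ABL1 line reached the level the filter asks of 6. Dtx1 was called lower in mouse 2 alone and without EV 1B or EV 1C, and in no other fit. In those fits it passed the filter through the EV lines in which it was higher, so the calls are not given as support.

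Nrarp, the feedback inhibitor gene on chromosome 2 from 25180758 to 25183339, had a pooled difference near 0 and opposite directions in the 2 mice. In mouse 1 the EV lines held 5.72, 4.85 and 4.91 CPM and the BCR-ABL1 lines 11.0, 13.5 and 11.7 CPM. In mouse 2 the EV lines held 17.2, 16.8 and 17.1 CPM and the BCR-ABL1 lines 9.51, 10.3 and 9.69 CPM. Every BCR-ABL1 line was above every EV line in mouse 1 and below every EV line in mouse 2. The pooled log2 fold change was -0.02 (standard error 0.39, adjusted p = 1.00), or 0.21 with the mouse as a replicate block. Within mouse 1 it was 1.24 (adjusted p = 0.000135), and within mouse 2 it was -0.78 (adjusted p = 0.185). The change in mouse 2 was lower than that in mouse 1 by a log2 value of -2.02 (edgeR interaction test, adjusted p = 1.52e-05). The antisense gene Gm38287 held 9 to 42 reads in EV and 3 to 15 reads in BCR-ABL1 lines.

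Of the 7 members tested, 1 was called higher and 0 lower by edgeR's quasi-likelihood test, beside 5.99% and 6.49% of the 15038 genes tested. At an unadjusted p under 0.05 there were 2 higher and 0 lower, and the likelihood ratio fit and DESeq2 gave the same numbers at both thresholds. The median log2 fold change of the 7 was 0.19, with 4 positive and 3 negative, beside -0.02 over all genes tested. In 3 of the 7, namely Notch1, Rbpj and Dtx4, every BCR-ABL1 line lay above every EV line, and in 0 below, against 12.1% and 13.5% of all genes. For Notch1 and Nrarp the change between EV and BCR-ABL1 lines differed between the 2 mice, 2 of 7 members against 16.9% of all genes. For Notch1 the difference was -0.61 on the log2 scale (adjusted p = 0.0279), and it was lost when any 1 of 7 lines (EV 1B, EV 1C, EV 2A, BCR-ABL1 1B, BCR-ABL1 1C, BCR-ABL1 2A or BCR-ABL1 2B) was left out, with adjusted p up to 0.0685. That of Nrarp was kept with any 1 line left out, with adjusted p of 0.000149 or less. In mouse 1 alone 3 members (Notch1, Dtx4 and Nrarp) were called higher, beside 16.3% of 15395 genes higher and 12.2% lower. In mouse 2 alone Dtx4 was called higher, beside 3.99% of 15400 genes higher and 2.65% lower. With 7 members tested, these counts were not read as a result about the group.

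**Figure D2:**
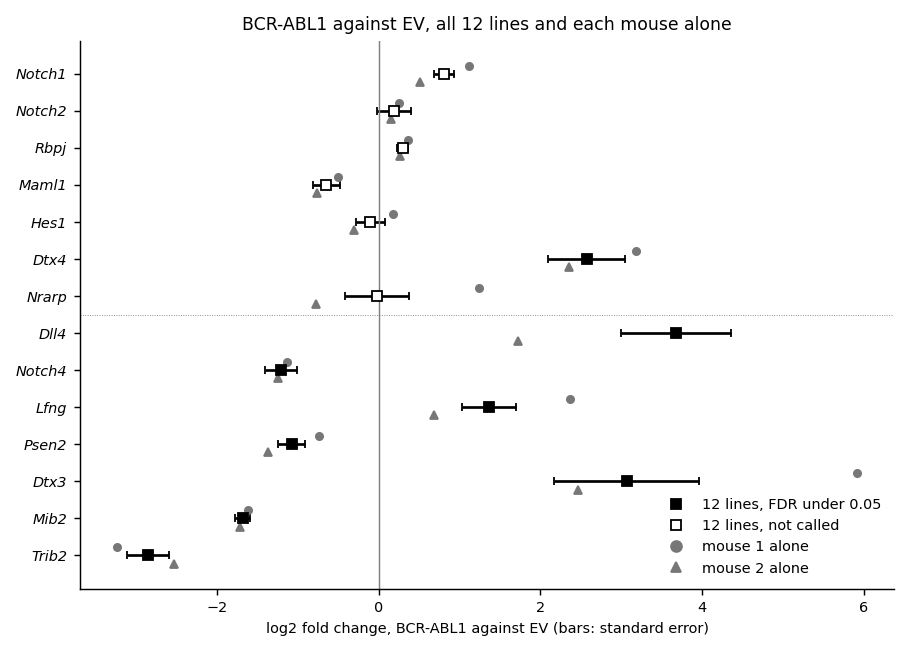
Log2 fold change of BCR-ABL1 against EV lines (horizontal axis) for the 7 tested members, above the dotted line, and the 7 other Notch pathway genes called. Squares are the fit to 12 lines, filled where the adjusted p (FDR) was under 0.05. Bars are standard errors of the difference in mean log2 CPM, not of the fit. Grey circles and triangles are the fits to mouse 1 and mouse 2 alone, with none drawn for Dll4 in mouse 1, where each EV line had 1 read. The marks of Nrarp lie on both sides of 0, at 1.24 and -0.78.

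**Figure D3:**
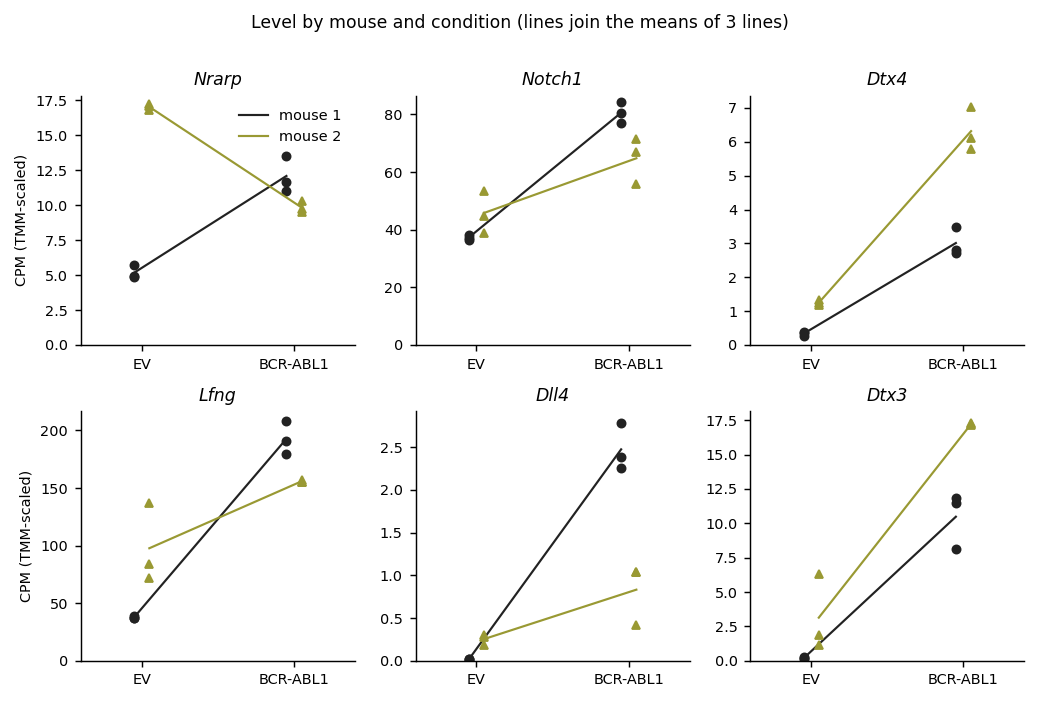
CPM (vertical axes from 0) of Nrarp, Notch1, Dtx4, Lfng, Dll4 and Dtx3 in EV and BCR-ABL1 lines of mouse 1 (black circles) and mouse 2 (olive triangles). Slanted strokes join the means of 3 lines. The strokes of Nrarp cross, from 5.16 to 12.1 CPM in mouse 1 and from 17.0 to 9.82 CPM in mouse 2.

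Levels of different genes can be compared once divided by exon length. Per kilobase of exon, Hes1 was the highest member in both groups, at a median of 11.3 CPM per kb in EV and 12.1 in BCR-ABL1 lines, and above the next member in 6 of 6 lines of each group. In EV lines Maml1 (5.39), Rbpj (4.66), Nrarp (4.35), Notch1 (2.71) and Notch2 (2.18 CPM per kb) followed. Rbpj was above Nrarp, and Nrarp above Notch1, in only 3 of 6 EV lines, so their places there are not separated. In BCR-ABL1 lines the order was Rbpj (5.56), Notch1 (5.22), Nrarp (4.13), Maml1 (3.57) and Notch2 (2.70 CPM per kb), with Rbpj above Notch1 in 4 of 6 lines. Notch1 thus stood below Maml1 at the median of the EV lines and above it at that of the BCR-ABL1 lines. Dtx4, at 0.149 and 0.889 CPM per kb, was below those 6 members in all lines, and Dtx1, Notch3 and Hey1 were lower still.

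**Figure D4:**
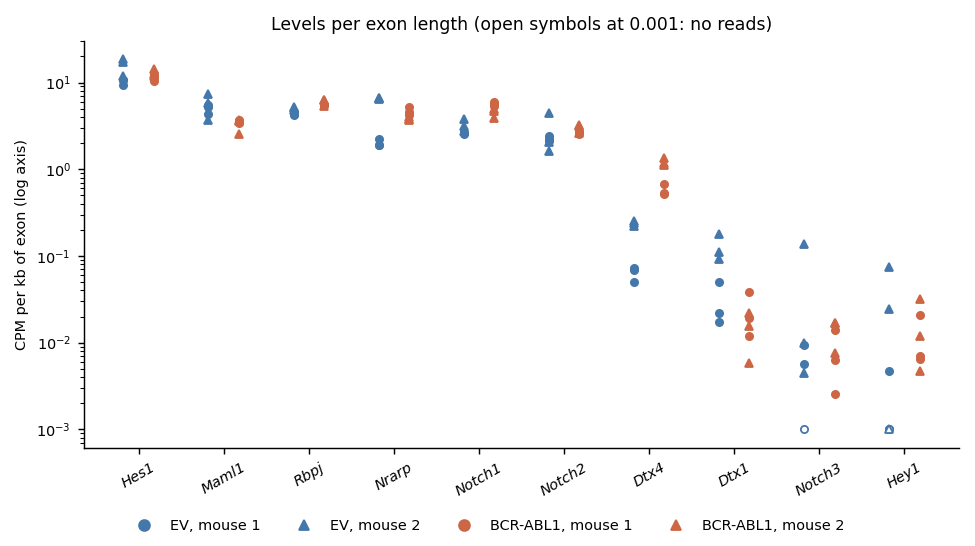
CPM per kilobase of exon (log axis) of the 10 members, ordered by their median in EV lines. Blue marks are EV and orange marks BCR-ABL1 lines, circles mouse 1 and triangles mouse 2, and open marks at the foot are lines without a read. Hes1 lies at the top with medians of 11.3 and 12.1 CPM per kb, and Dtx4 lies between the upper 6 and the lowest 3 genes.

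Promoter sequences, the 250 bases before a RefSeq gene start (GRCm38.p6, written 5′ to 3′ on the strand of the gene), were available for 7 of the 10 members. None was available for Hes1, Hey1 and Dtx4. Those of Nrarp and Notch1 are shown since their changes differed between the mice, that of Rbpj since it is the DNA-binding mediator, and that of Lfng, a gene called higher, since it held the letters known to be bound by RBPJ. Capitals mark the RBPJ core letters TGGGAA or their reverse complement TTCCCA, which were searched on both strands.
Nrarp, chr2:25180508-25180757, plus strand: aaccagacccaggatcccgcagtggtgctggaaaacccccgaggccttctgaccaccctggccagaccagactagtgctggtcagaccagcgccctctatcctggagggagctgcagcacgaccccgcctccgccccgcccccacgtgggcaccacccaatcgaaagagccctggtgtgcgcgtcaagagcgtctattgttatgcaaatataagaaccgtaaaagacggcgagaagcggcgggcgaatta
Notch1, chr2:26503823-26504072, minus strand: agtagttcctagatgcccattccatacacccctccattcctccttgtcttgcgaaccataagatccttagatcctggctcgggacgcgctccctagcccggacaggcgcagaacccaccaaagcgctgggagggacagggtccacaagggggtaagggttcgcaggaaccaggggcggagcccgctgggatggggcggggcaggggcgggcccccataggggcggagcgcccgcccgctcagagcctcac
Rbpj, chr5:53590096-53590345, plus strand: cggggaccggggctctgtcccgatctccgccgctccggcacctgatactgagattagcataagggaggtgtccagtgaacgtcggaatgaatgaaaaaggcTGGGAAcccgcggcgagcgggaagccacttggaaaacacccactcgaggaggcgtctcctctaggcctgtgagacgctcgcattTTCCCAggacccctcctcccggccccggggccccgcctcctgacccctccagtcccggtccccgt
Lfng, chr5:140607091-140607340, plus strand: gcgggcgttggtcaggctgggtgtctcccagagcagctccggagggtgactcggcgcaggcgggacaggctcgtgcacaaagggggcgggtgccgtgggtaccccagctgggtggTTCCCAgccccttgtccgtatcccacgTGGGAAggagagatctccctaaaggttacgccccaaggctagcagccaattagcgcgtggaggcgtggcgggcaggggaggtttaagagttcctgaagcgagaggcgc
The core letters were in 21.6% of the 32851 promoters of the same length, and the longer form GTGGGAA or TTCCCAC, which contains the core, in 5.42%. The promoter of Rbpj shown held 2 core matches, 149 and 65 bases before the start, and the window at its other start held 1. That of Lfng held 2, 135 and 108 bases before its start, 1 of them in the longer form. Psen2, called lower, also held 1 match, in the longer form, 89 bases before 1 of its 2 starts and 0 before the other. The windows of Dll4, Notch4, Mib2 and Trib2, also called, held 0. Hes5, Kat2a, Ptcra and 1 start of Bmf, genes which were not called, held 2 each. The windows of Nrarp and Notch1 and those of the other matched members held 0. All 4 windows were rich in G and C, at 61.2%, 66.0%, 65.2% and 66.0% in the order shown, against a median of 52.4% over all promoters.

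The other 71 Notch pathway genes looked at comprised ligands, the receptor Notch4, and genes for glycosylation, cleavage, coactivation, corepression and turnover of the receptors, with further targets. Of these, 61 were tested, and 3 were called higher and 4 lower, shares near those of all genes, though Dll4 and Dtx3 entered the test only through the BCR-ABL1 lines. Their log2 fold changes had a median over the 61 of -0.11, with 26 positive and 35 negative. In 3 and 7 of the 61 every BCR-ABL1 line lay above or below every EV line, beside 12.1% and 13.5% of all genes. With the mouse as a replicate block the calls were 4 higher and 5 lower (7.49% and 7.18% of all genes). The additions were the corepressor gene Tle1 (log2 fold change 2.48, adjusted p = 0.0177) and the secretase subunit gene Aph1b (-2.14, adjusted p = 0.00354), both named after their values were seen.

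Of the ligands, 4 of 7 were tested. Dll4, an activating ligand, was read 1 time in each EV line of mouse 1, 9, 9 and 17 times in EV lines 2A to 2C, 133, 133 and 105 times in BCR-ABL1 lines 1A to 1C, and 22, 68 and 50 times in BCR-ABL1 lines 2A to 2C. The fitted log2 fold change was 3.67 (standard error 0.68, adjusted p = 0.00695). All 6 BCR-ABL1 lines but only 2 EV lines reached the level of the gene filter, so Dll4 was tested only because it was high in the BCR-ABL1 lines, and the call is not given as support. Its level stayed low, with EV lines at 0.0144 to 0.307 CPM and BCR-ABL1 lines at 0.424 to 2.78 CPM, without overlap. In mouse 2 alone the log2 fold change was 1.72 (adjusted p = 0.122). Jag2 lay at 0.757 to 2.98 CPM (EV) and 0.610 to 2.68 CPM (BCR-ABL1) and was not called (log2 fold change -0.22, adjusted p = 1.00). Dll1, Dll3, Jag1, Dlk1 and Dlk2 were at 0.491 CPM or less in all lines.

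Of the 5 glycosylation genes, Lfng was called, higher in BCR-ABL1 lines. Lunatic fringe, its product, adds sugars to Notch receptors and shifts which ligands activate them. It was at 36.9, 37.5 and 38.7 CPM in EV lines 1A to 1C, at 84.1, 71.8 and 137 CPM in EV lines 2A to 2C, while the BCR-ABL1 lines, at 155 to 208 CPM, were all above. The log2 fold change was 1.36 (standard error 0.33, adjusted p = 0.0358). The call was lost when any 1 of 9 lines was left out (adjusted p up to 0.0696), all but EV 2A, EV 2C and BCR-ABL1 2C. Within mouse 1 it was 2.36 (adjusted p = 2.18e-09), and within mouse 2 it was 0.68 (adjusted p = 0.596).

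Psen2 was the only one of 9 tested cleavage genes that passed. Presenilin 2 is a catalytic subunit of gamma-secretase, the protease that frees the receptor's intracellular domain. The EV lines held 17.3 to 34.6 CPM (median 19.5) and the BCR-ABL1 lines 9.47 to 12.4 CPM (median 10.3), a log2 difference of -1.08 (standard error 0.16, adjusted p = 0.0146). It was -0.74 in mouse 1 alone (adjusted p = 0.0637) and -1.36 in mouse 2 alone (adjusted p = 0.0534).

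None of the 7 coactivator genes and none of the 13 tested corepressor genes was called by the quasi-likelihood test. Of the 11 tested turnover and endocytosis genes, 1 was called higher and 1 lower. Dtx3, another Deltex family gene, was at 0.263, 0.101 and 0.169 CPM in EV lines 1A to 1C, 1.90, 6.34 and 1.17 CPM in EV lines 2A to 2C, and 8.10 to 17.3 CPM in those with BCR-ABL1. The fitted log2 change was 3.07 (standard error 0.89, adjusted p = 0.0433). It reached the filter level in 6 BCR-ABL1 and 4 EV lines, so it too was tested only through the BCR-ABL1 lines. Its calls are therefore not given as support. The call over all lines was kept only without EV 2B (log2 fold change 4.29, adjusted p = 0.00273) and lost without any other single line (adjusted p up to 0.0761). In mouse 1 alone the change was 5.92 (adjusted p = 4.36e-08) and in mouse 2 alone 2.47 (adjusted p = 0.0829). Mib2, which encodes a ligase that promotes ligand endocytosis, fell from between 38.6 and 54.7 CPM (EV) to between 12.3 and 15.8 CPM (BCR-ABL1). Its log2 change was -1.68 (standard error 0.09, adjusted p = 4.22e-06), at -1.61 in mouse 1 and -1.72 in mouse 2.

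Of the 11 further targets tested, Trib2 was called. Tribbles 2 is a pseudokinase that has been described as a Notch target in leukemia. The EV lines lay between 57.0 and 87.8 CPM (median 81.4) and the BCR-ABL1 lines between 5.0 and 14.7 CPM (median 11.9). The log2 change was -2.85 (standard error 0.26, adjusted p = 1.79e-05), at -3.23 in mouse 1 and -2.53 in mouse 2. Among the 61 pathway genes, 17 had a change that differed between the mice, beside the 16.9% of all genes.

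**Figure D5:**
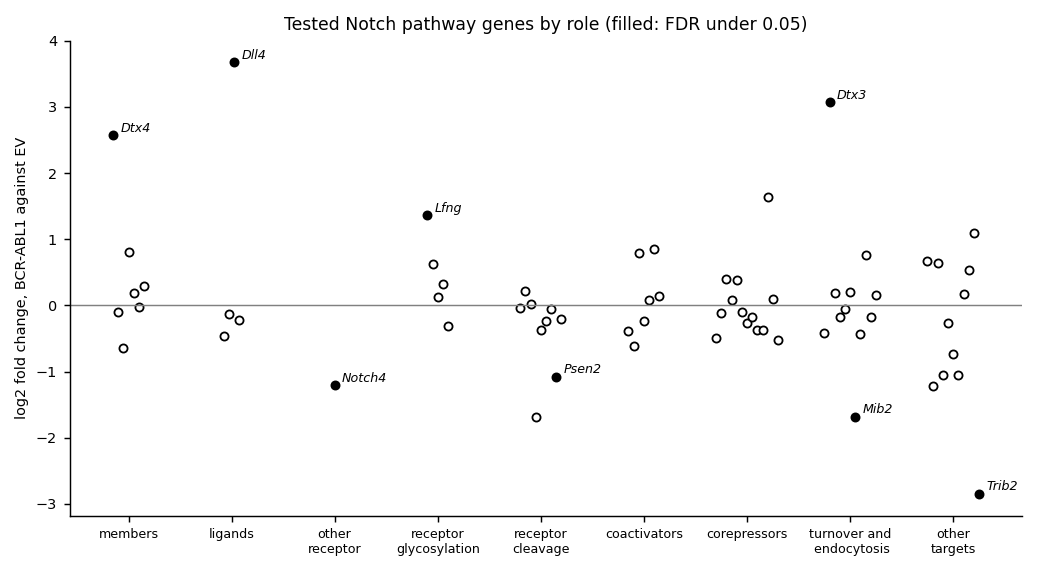
Log2 fold change of BCR-ABL1 against EV lines (vertical axis) for every tested Notch pathway gene, by role. Each circle is 1 gene, filled and named where the adjusted p was under 0.05. Dtx4, Dll4, Lfng and Dtx3 lie above 0 and Notch4, Psen2, Mib2 and Trib2 below, and the coactivators and corepressors have no filled circle.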

How the data were processed

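RNA from 12 lines, 6 EV and 6 BCR-ABL1, was sequenced by the authors from stranded total RNA libraries. Per the labels, reads were trimmed (Trimmomatic 0.36), aligned (TopHat2 2.1.1, Bowtie2 2.3.2; GRCm38) and counted with featureCounts 1.5.3. The deposited values are raw gene counts, and the strand setting of the counter is not given in the sources used here, so antisense pairs such as Notch1 and 0610009E02Rik may share reads. The 51826 identifiers were matched to GENCODE M21 symbols (51633 matched).

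Counts were filtered (filterByExpr), scaled (TMM) and fitted in edgeR 4.0.16 (R 4.3.3) by quasi-likelihood. glmTreat tested each of 15038 genes against a 1.5-fold change with Benjamini-Hochberg adjustment at 0.05 over all genes. The interaction of mouse and condition used glmQLFTest. Genes below the filter were compared by an exact permutation test of log2 CPM with a prior count of 2. Standard errors were taken from the variances of the same log2 CPM within each group, with the mouse left out. They do not come from the edgeR fit. A floor of 3 counts per line, 0.0433 to 0.0920 CPM, was taken for detection and covers counting error only. The alternatives were DESeq2 1.42.0, a likelihood ratio fit, other filters and scaling, blocks, each mouse alone and omission of each line. The fits were also run on simulated data, but the outcome is not reported here and is not used as support.

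Genes named were the 10 members, all ligands and Notch4, other pathway genes passing the test, and the 3 genes most like a called member. Members and lists were chosen with earlier results of these data known. The labels assign lines to a mouse, so the mouse pairs samples, but the main fit held the condition only. The mouse entered the interaction test and, as a block, an alternative fit. Deviations of lines from the same mouse in both vectors correlated at 0.0853 to 0.240 and from different mice at -0.203 to -0.0636. Lines sharing a letter did not pair beyond that (-0.109 to 0.0856). Chi-square per gene between lines of a mouse and vector was 9.96 to 481, so none was a duplicate. The summed B lineage marker level is not reported here.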

Additional observations from a re-analysis of the deposited data

Results flagged for a closer look

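In 7 of the 46 groups of 6 lines examined (23 genes, each in EV and in BCR-ABL1 lines), 1 line stood apart by Dixon's criterion. Chance alone gives about 1 in 20 for independent, normally spread values. Genes with few reads and groups that share a library depart from that, so no excess was read from the 7. EV 2C was high for Notch2 at 47.9 CPM, with the next EV line at 26.0 CPM. EV 2A was high for Notch3 at 1.10 CPM, for Hey1 at 0.245 CPM, for Dlk1 at 0.245 CPM and for Dlk2 at 0.276 CPM, from 36, 8, 8 and 9 reads, and this was the line with the most genes detected. EV 2B was high for Dtx3 at 6.34 CPM, with the next EV line at 1.90 CPM. BCR-ABL1 2A was low for Maml1 at 14.1 CPM, with the next BCR-ABL1 line at 18.7 CPM.

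For 5 named genes the change between EV and BCR-ABL1 lines differed between the 2 mice by edgeR's interaction test, mouse 2 minus mouse 1 on the log2 scale. The differences were -0.61 for Notch1 (adjusted p = 0.0279), -2.02 for Nrarp (adjusted p = 1.52e-05), -1.68 for Lfng (adjusted p = 0.00139), -3.45 for Dtx3 (adjusted p = 0.0106) and -5.36 for Dll4 (adjusted p = 0.000218). Dll4 and Dtx3 entered this test only through the BCR-ABL1 lines, so their values are not given as support. The fitted size for Dll4 depends on the prior count, since its EV lines of mouse 1 had 1 read each. Of all genes tested, 16.9% passed this test, so such differences are frequent in these lines.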

How the results depend on the processing

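Dtx4, Mib2 and Trib2 kept their call in all 22 alternatives each, and the interaction for Nrarp kept it in all 17. With the mouse as a replicate block, members were called 1 higher and 0 lower, and with the line pair as a replicate block other pathway genes were 1 higher. Apart from Tle1 and Aph1b, the mouse block changed no call of these genes. The counts that moved by over 1.5 times were as follows. Members called higher numbered 3 against no change and 3 in mouse 1 alone, and 1 to 2 when a line was left out. Members called lower numbered 1 against no change (Maml1) and 1 in mouse 2 alone (Dtx1), and 0 to 1 when a line was left out (Dtx1 without EV 1B or EV 1C), where Dtx1 entered the test through its higher EV lines. Other pathway genes called higher numbered 1 with a filter of at least 1 CPM in at least 6 lines, 7 against no change, 10 in mouse 1, 0 in mouse 2 (3 at an unadjusted p under 0.05), and 1 to 3 when a line was left out. Those called lower numbered 2 in DESeq2, 16 against no change, 7 in mouse 1, 2 in mouse 2, and 4 to 5 when a line was left out. Smaller moves were 2 higher in DESeq2 and 5 lower in the likelihood ratio fit. Over all genes, higher and lower calls were 3389 and 3897 against no change, 2512 and 1877 in mouse 1, 614 and 408 in mouse 2, and 901 and 976 as reported. Members whose change differed between the mice numbered 1 to 4 when a line was left out, with Notch2 (adjusted p = 0.0341) and Dtx4 (0.0292) added without EV 2C. There all genes called in the interaction numbered 5522, against 2536.

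Nrarp turned sign with the size factors of DESeq2 (0.00797), in DESeq2 (0.00795), without a gene filter (0.0521), with the mouse and line pair replicate block (0.214 and 0.211) and in mouse 1 (1.24), and ranged from -0.17 to 0.15 when a line was left out. Hes1 turned in mouse 1 (0.183), with a range of -0.182 to 0.0125, and Notch3 turned with a prior count of 0.5 (0.130), with a range of -0.44 to 0.56. Notch4 was lost in DESeq2 (adjusted p = 0.103), without a filter (0.0559) and in mouse 2 alone. Lfng (0.0928) and Psen2 (0.0603) were lost in DESeq2, and Dll4 (0.0700) and Lfng (0.0522) with the line pair block. Dtx3 was lost with the filter of 1 CPM (0.0528). The interaction for Notch1 was lost without a filter (0.0995). The causes were not tested. Notch3, Hey1 and Dtx1 had 47 reads or fewer in each line, too few for the model at this depth.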

Other observations

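Among the further targets, Hes5, a Hes family repressor gene, had the same order of groups in each mouse as Nrarp. In mouse 1 its EV lines held 4.01 to 4.90 CPM and its BCR-ABL1 lines 6.61 to 6.91 CPM. In mouse 2 its EV lines held 5.22 to 10.1 CPM and its BCR-ABL1 lines 2.89 to 3.56 CPM. Its change differed between the mice by -1.85 on the log2 scale (edgeR interaction test, adjusted p = 0.00177), while neither mouse alone was called (0.61, adjusted p = 0.467, and -1.23, adjusted p = 0.122). Tcf7, a T lineage target, had 0 to 2 reads in the EV lines of mouse 1 and in EV 2C, 22 and 83 reads in EV 2A and EV 2B, and 21 to 59 reads in the BCR-ABL1 lines. Both genes were picked after their values were seen.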
